A study of Mus musculus with 107 samples.

Results

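The genes described here are 10 members of the S100 family of small calcium-binding proteins, S100b, S100a1, S100a4, S100a6, S100a8, S100a9, S100a10, S100a11, S100a13 and S100a16, chosen by symbol and found by Entrez identifier among the 27179 genes of each count table. RNA bound to ribosomes that carried HA-tagged Rpl22 (RiboTag) was recovered by anti-HA precipitation and sequenced in libraries of 23 groups. The design followed mouse embryonic stem cells (ESC) through neural progenitor cells (NPC) to astroglia in culture and to NPC grafts in spinal cord, with host astrocytes of the cord beside them. Levels are given as CPM, counts scaled to the same total in every library, as mean ± SD over the libraries of a group where an error is shown.

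All samples are labelled C57BL/6 and RiboTag +. The ESC were 1 female line, homozygous for RiboTag after Sox2-Cre had activated it, so all cells derived from it carried the tag. ESC had 4 libraries. NPC of the first derivation were sampled at passages 5, 15 and 30 (P5, P15 and P30) with 4 libraries each, and 2 further derivations at P15 (D2 and D3) with 6 and 4, all in serum-free medium with EGF and FGF at 100 ng/ml. Differentiation lasted 4 days in EGF and FGF at 1 ng/ml, alone (SPONT) or with 100 ng/ml CNTF (ciliary neurotrophic factor), 100 ng/ml IGF-1, fetal bovine serum at 1, 5, 10 or 20% (FBS1 to FBS20) or CNTF with 5% serum, with 4 libraries in each of these 8 groups. NPC passed through a pipette in the hydrogel DCH, in DCH after 4 hours in it, or in medium had 5 libraries each.

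Host astrocyte RNA came from adult mice in which Cre driven by the Gfap promoter activated RiboTag, in healthy cord (9 libraries) and 14 days after a crush spinal cord injury (SCI, 5 libraries). Grafts were NPC in adult mice without the tag, recovered from cord segments at 14 days in uninjured cord, in a single crush at T10 (SCI) and in a double crush (dSCI), and at 5 days in SCI, with 5 libraries each. In injured mice the cells were grafted 2 days after the injury, and whether the 5 and 14 days run from the injury or from the grafting is not settled in the sources used here. The hosts received no immunosuppression. The 96 libraries read as pairs held 30473157 to 147764968 counts, while the 11 of D2 and of the 5-day grafts were single reads and held 12286240 to 18085106. ESC held the pluripotency gene Pou5f1 at 908 CPM, against at most 0.175 CPM in any other group. A list of 6 astrocyte markers summed to 31980.0 to 39760.0 CPM in healthy host libraries, which also held 6 oligodendrocyte markers at 5901 to 12490.0 CPM and 3 Schwann cell markers at 821 to 1789 CPM. In such bulk RNA, fewer cells of a type and less RNA per cell cannot be told apart.

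S100 proteins form dimers that change shape on binding calcium through a pair of EF-hand loops and then grip target proteins such as annexins, myosin or p53. Several are also secreted and act on the receptor RAGE (Ager) or on Tlr4. In the central nervous system S100b is a classical marker of astrocytes, found in the oligodendrocyte lineage as well, and S100a4, S100a6, S100a10 and S100a11 are known from reactive glia, migrating cells and wound tissue.

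S100b lies on chromosome 10 and the other 9 on chromosome 3 of GRCm38, where 7 of them, from S100a1 to S100a9, fall between bases 90511034 and 90695721. S100a11 and S100a10 lie farther along, between 93520496 and 93564645. RefSeq promoter sequences of GRCm38 were matched for 9 members, all but S100a10, as 10 promoters since S100a16 had 2. The 250 bases before the start site are shown for S100a4, its neighbour S100a6 and S100a11, because these members rose with CNTF in culture and after injury in the host. Capitals mark motif letters, which were searched on both strands.
S100a4, chr3:90603520-90603769, plus strand: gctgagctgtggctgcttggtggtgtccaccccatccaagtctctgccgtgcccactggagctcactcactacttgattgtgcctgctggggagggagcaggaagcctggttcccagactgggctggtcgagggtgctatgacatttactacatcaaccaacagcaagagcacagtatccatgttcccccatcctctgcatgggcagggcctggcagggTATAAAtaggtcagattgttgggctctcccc
S100a6, chr3:90612644-90612893, plus strand: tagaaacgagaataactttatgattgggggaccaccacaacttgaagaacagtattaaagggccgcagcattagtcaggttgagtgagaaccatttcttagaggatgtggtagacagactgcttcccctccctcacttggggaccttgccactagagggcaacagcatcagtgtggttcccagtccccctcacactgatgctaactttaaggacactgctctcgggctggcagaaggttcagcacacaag
S100a11, chr3:93520246-93520495, plus strand: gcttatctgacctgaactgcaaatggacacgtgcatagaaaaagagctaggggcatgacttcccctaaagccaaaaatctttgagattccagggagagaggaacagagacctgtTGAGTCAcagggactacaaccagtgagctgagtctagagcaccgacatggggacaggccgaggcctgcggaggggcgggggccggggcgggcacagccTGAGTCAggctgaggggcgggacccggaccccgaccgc
The S100a11 stretch held the AP-1 letters TGANTCA at -136 and at -38 from the start site, and 6.75% of the 32851 RefSeq promoters searched held them at least once. Among the other members, 1 of the 2 S100a16 promoters held them, at -192. The TATA box letters TATAAA stood at -31 in S100a4 and at -30 in S100a8, and 12.4% of promoters held them. The letters TTCNNNGAA, the core of STAT sites, were in none of the 10 promoters and in 7.02% of all. These matches describe letters in a window and no binding was measured.

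S100b and S100a1 were highest in host astrocytes, S100a10 and S100a11 were measured in every library with their highest means in cultures, and S100a8 and S100a9 were at or near 0 in every culture. S100a4, S100a6, S100a13 and S100a16 were low in NPC and had their highest means in SCI host. Mean S100b ran from 1.64 CPM in ESC to 2566 CPM in healthy host, and mean S100a1 from 0.363 CPM in NPC in medium to 850.3 CPM in SCI host. The span of group means was 25.2-fold for S100a11, 50.9-fold for S100a10, 316-fold for S100a13 and over 1000-fold for S100b, S100a1, S100a4, S100a6 and S100a16. When the groups were ordered by mean, the libraries of neighbouring groups overlapped in 16 of 22 pairs for S100b and S100a10, in 18 for S100a1, S100a6, S100a11 and S100a16, in 19 for S100a13 and in 21 for S100a4, S100a8 and S100a9. Most steps in each order were thus within the spread of libraries. The 6 separate steps of S100b, from the top, lay between SCI host and uninjured grafts, IGF-1 and SPONT, FBS1 and CNTF, CNTF and FBS5, FBS10 and FBS20, and D2 NPC and ESC.

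**Figure D1:**
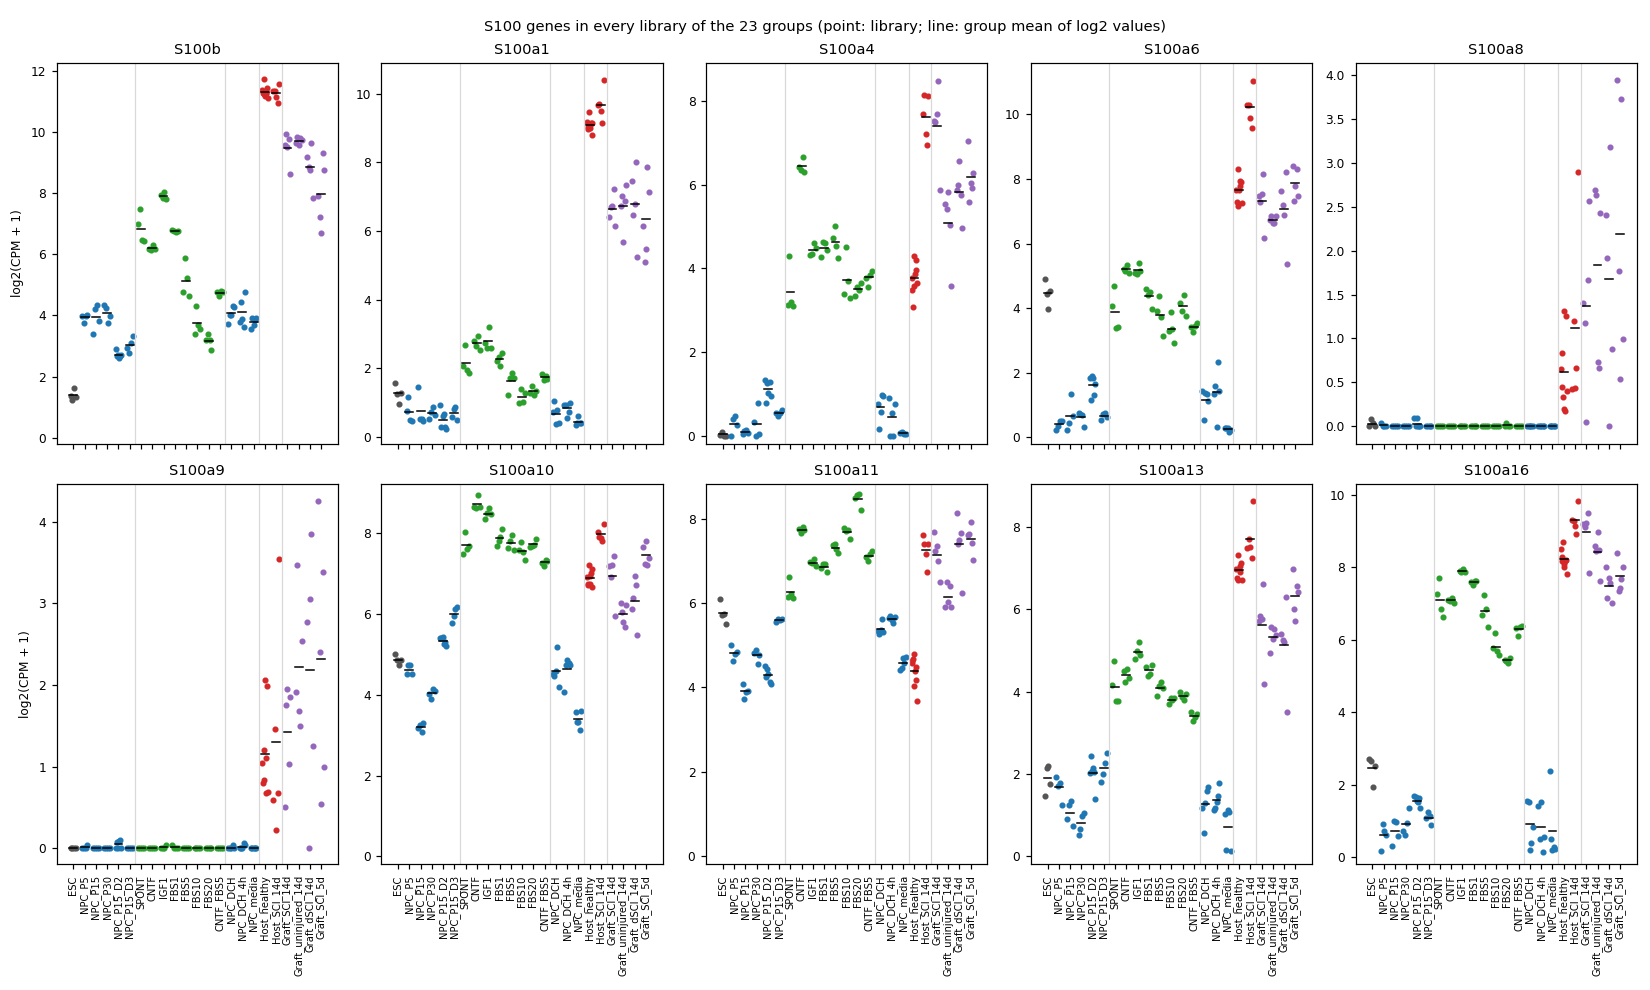
Level of each S100 gene in every library as log2(CPM + 1), 1 panel per gene and 1 column per group, where a point is a library and a line the group mean. S100b is highest in the 14 host libraries, S100a10 and S100a11 are well above 0 in every group, and S100a8 and S100a9 leave the baseline in host and graft groups.

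Levels of different genes were set side by side per kilobase of exon (FPKM). S100a11, a ligand of Anxa1, led in ESC and in all 8 NPC groups, cultured or pipetted, with 44.1 to 71.5% of the FPKM summed over the members. In SPONT and IGF-1 cultures S100a10, the partner of Anxa2 that does not itself bind calcium, came first with 31.3 and 30.7% of the sum. S100b led in healthy host with 54.2%, in SCI host with 31.0% and in the 14-day grafts of uninjured and SCI cord with 42.0 and 26.2%, while S100a11 led in dSCI and 5-day grafts. The summed FPKM of the members was 47.9 in P15 NPC, 549 in SPONT, 3191 in healthy host and 5409 in SCI host.

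The first comparison asked which S100 genes differ between P15 NPC and ESC. S100b rose, from 1.56, 1.36, 2.10 and 1.53 CPM in the 4 ESC libraries to 9.39, 17.7, 19.2 and 13.2 CPM in NPC (log2FC 3.09 ± 0.29, adjusted p = 1.57e-06). S100a6, which binds the Siah-interacting protein Cacybp, fell from 29.1, 20.8, 14.9 and 22.1 CPM to 0.175, 0.361, 1.56 and 0.585 CPM (log2FC -5.12 ± 0.58, adjusted p = 8.93e-06). Neither gene's libraries overlapped between the groups. S100a10 also fell (log2FC -1.86 ± 0.13, adjusted p = 1.16e-07), as did S100a11 (log2FC -2.03 ± 0.14, adjusted p = 1.45e-07) and S100a16 (log2FC -2.84 ± 0.52, adjusted p = 0.000421). Of 10 members 7 passed the filter on low counts (edgeR's filterByExpr) and 5 of those were called at an adjusted p below 0.01, beside 67.2% of all 15350 genes tested (32.2% higher and 34.9% lower) called. S100a1 and S100a13 were not called, and S100a4, S100a8 and S100a9 were not tested. Between P5 and P30, S100a10 fell from 21.9, 25.5, 25.4 and 21.6 CPM to 15.3, 14.0, 16.7 and 16.2 CPM (log2FC -0.62 ± 0.12, adjusted p = 0.000198), with no overlap. It was the 1 member called of 8 tested, beside 35.5% of all 14577 genes tested (17.5% higher and 18.1% lower). S100a10 stood lower at P15, at 8.25 ± 0.582 CPM, than at either passage. The NPC derivations were not alike at P15, since D2 and D3 held S100a10 at 39.4 ± 2.54 and 63.5 ± 7.87 CPM, S100a11 at 18.6 ± 2.29 and 47.5 ± 1.32 CPM and S100b at 5.54 ± 0.476 and 7.25 ± 1.41 CPM, beside 14.0 ± 1.44 CPM of S100a11 and 14.9 ± 4.45 CPM of S100b in the first. ESC held S100a10 at 28.2 ± 2.26 CPM and S100a11 at 53.9 ± 9.57 CPM. Mean S100a10 was thus below ESC in the first derivation but above it in D2 and D3. The S100a11 libraries of D3 overlapped those of ESC. These differences between derivations were given no test.

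Spontaneous differentiation raised all 8 members tested, against 57.2% of all 14852 genes tested (29.8% higher and 27.4% lower). S100a16, a widely expressed member, was at 0.250, 1.01, 0.976 and 0.495 CPM in P15 NPC and at 151, 209, 114 and 97.1 CPM in SPONT (log2FC 7.83 ± 0.42, adjusted p = 3.66e-08). S100a4, which binds the non-muscle myosin heavy chain Myh9, went from 0.0250, 0.0774, 0.0930 and 0.0450 CPM to 7.65, 18.5, 8.09 and 7.58 CPM (log2FC 7.54 ± 0.51, adjusted p = 2.26e-07). For both genes the groups were wholly separate. S100a4 had 2 to 6 counts in the P15 NPC libraries and passed the filter only through SPONT, so no other direction could be called. In the GENCODE annotation S100a4 shares 302 of its 584 exon bases with the predicted gene Gm42674 on the same strand. Whether Gm42674 was in the annotation used for counting is not given in the sources used here. If it was, reads there could have been dropped or assigned to either, so S100a4 values are uncertain to that extent throughout. The gene spans of S100a1 and S100a13 also overlap, on opposite strands, but shared no exon bases in GENCODE. S100a10 rose from 8.25 ± 0.582 to 208 ± 34.6 CPM (log2FC 4.79 ± 0.14, adjusted p = 5.55e-10), S100a6 from 0.671 ± 0.619 to 14.8 ± 7.05 CPM (log2FC 4.62 ± 0.61, adjusted p = 5.03e-05) and S100a13, which takes part in the export of Fgf1, from 1.11 ± 0.405 to 17.1 ± 6.27 CPM (log2FC 4.06 ± 0.34, adjusted p = 1.38e-06). S100b was 8.81-fold higher and S100a11 6.01-fold (log2FC 3.14 ± 0.29, adjusted p = 3.22e-06, and log2FC 2.59 ± 0.15, adjusted p = 5.69e-08). S100a1, known from muscle as a regulator of calcium release, rose from 0.749 ± 0.653 to 3.54 ± 1.31 CPM (log2FC 2.35 ± 0.55, adjusted p = 0.00281). S100a8 and S100a9 had 0 counts in all SPONT libraries. The median log2FC of the 8 members, S100a4 included, was 4.34, beside 0.08 for all genes tested. The sources do not say which NPC were the reference, and against D3 NPC all 8 were again called by edgeR but some sizes were smaller, with log2FC 1.78 for S100a10, 0.77 for S100a11, 4.60 for S100a4 and 2.36 for S100a13. The order of sizes thus depended on the reference.

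SPONT replicate 2 stood above the other 3 libraries for every member with counts. Its S100b was 179 CPM against 125 CPM in the next, and its S100a4 18.5 CPM against 8.09 CPM. Its oligodendrocyte marker sum, 2008 CPM, lay inside the range of the others, 1110 to 2506 CPM, and its macrophage and microglia marker sum, 5.50 CPM, was above their 2.46 to 2.64 CPM. Against P15 NPC all 8 members were called without it, with log2FC from 2.03 for S100a1 to 7.55 for S100a16.

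CNTF, a cytokine that drives astrocyte differentiation through STAT3, was compared with SPONT. S100a4 rose from 7.65, 18.5, 8.09 and 7.58 CPM to 85.0, 81.1, 101 and 78.6 CPM, an increase of 8.34-fold (log2FC 3.06 ± 0.29, adjusted p = 2.49e-05). S100a11 rose from 70.0, 96.5, 72.8 and 68.5 CPM to 215, 202, 223 and 211 CPM (log2FC 1.48 ± 0.12, adjusted p = 6.86e-06). In both genes the lowest CNTF library exceeded the highest SPONT library. S100a10 rose from 208 ± 34.6 to 419.5 ± 43.9 CPM (log2FC 1.03 ± 0.13, adjusted p = 0.000139) and S100a6 from 14.8 ± 7.05 to 35.8 ± 2.72 CPM (log2FC 1.29 ± 0.28, adjusted p = 0.00498). S100b was at 70.5, 68.7, 78.2 and 71.6 CPM with CNTF, below all 4 SPONT libraries, but did not pass (log2FC -0.71 ± 0.22, adjusted p = 0.0286). S100a13 and S100a16 were not called, with log2FC 0.26 ± 0.22 and -0.07 ± 0.21. The 4 called were of 8 tested, beside 19.9% of all 14879 genes tested (10.8% higher and 9.15% lower). Without SPONT replicate 2 the count was 7, with S100b, S100a1 and S100a13 added, whereas leaving out any other library took S100a6 below the threshold.

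Of 20 genes listed as S100 partners and receptors, 17 were tested in CNTF against SPONT, with 4 higher and 1 lower. Of all 14879 genes tested, 10.8% were higher and 9.15% lower. Anxa2, the partner of S100a10, rose from 211 to 595 CPM, log2FC 1.52 ± 0.10. Ahnak, a giant scaffold bound by S100a10 and Anxa2, rose from 86.0 to 150.5 CPM, log2FC 0.82 ± 0.11. Anxa1, the partner of S100a11, was much scarcer (0.116 to 1.78 CPM, log2FC 3.94 ± 0.39), and Anxa5 rose by 0.49 on the log2 scale. Fgf1 was the 1 that fell (40.8 to 14.4 CPM, log2FC -1.48 ± 0.12). The same list had 4 higher and 6 lower of 18 tested in SPONT against NPC. Of all 14852 genes tested there, 29.8% were higher and 27.4% lower.

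IGF-1 and 1% serum were compared with the same SPONT libraries. With IGF-1, S100b was at 246, 229.8, 259.6 and 222 CPM, each above the highest SPONT library (log2FC 1.06 ± 0.22, adjusted p = 0.00987). S100a10 (log2FC 0.82 ± 0.13, adjusted p = 0.00528) and S100a11 (log2FC 0.73 ± 0.12, adjusted p = 0.00581) also rose, which made 3 of 8 called beside 6.55% of all 14941 genes tested (2.80% higher and 3.75% lower). The oligodendrocyte marker sum was 3262 to 3751 CPM with IGF-1 and 1110.0 to 2506 CPM in SPONT, and the astrocyte sum 13980.0 to 15860.0 and 7880.0 to 11610.0 CPM, and the part of these cells in the S100 values was not tested. The other 5 tested members had log2FC between 0.78 and 1.30 and adjusted p from 0.0111 to 0.043. These calls depended on single libraries. Without SPONT replicate 2 all 8 were called, leaving out SPONT replicate 1 left 1 called, and without any other library none was called by edgeR, while DESeq2 on all libraries called 7. With 1% serum S100a11 alone was called, at 114, 121, 119.7 and 105 CPM (log2FC 0.59 ± 0.12, adjusted p = 0.00806), beside 8.78% of all 14938 genes tested (5.63% higher and 3.15% lower). That count was 4 without SPONT replicate 2 and 0 without any other library. S100b held 105 to 109 CPM in the 4 FBS1 libraries, inside the SPONT range of 86.1 to 179 CPM.

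Across the serum series S100b and S100a11 went opposite ways. S100b fell from 107.2 ± 1.41 CPM at 1% serum to 35.8 ± 15.4 at 5%, 12.8 ± 4.22 at 10% and 7.99 ± 1.29 CPM at 20%. The 4 libraries at 20% serum held 8.06, 9.39, 8.24 and 6.26 CPM, a 13.7-fold fall from 1% (log2FC -3.78 ± 0.11, adjusted p = 2.9e-11). S100a11 instead rose from 115 ± 7.08 through 159 ± 10.4 and 205 ± 16.5 to 353 ± 39.5 CPM, and its 20% libraries held 359, 374, 383 and 296 CPM (log2FC 1.59 ± 0.09, adjusted p = 1.12e-08). Neither gene overlapped between the ends of the series. S100a16 fell from 192.9, 181, 197 and 195 CPM to 42.4, 41.8, 40.4 and 44.3 CPM (log2FC -2.21 ± 0.06, adjusted p = 1.8e-11). S100a1 (log2FC -1.37 ± 0.15, adjusted p = 6.21e-06), S100a4 (log2FC -1.07 ± 0.11, adjusted p = 1.94e-06) and S100a13 (log2FC -0.70 ± 0.08, adjusted p = 8.88e-06) fell too. S100a6 and S100a10 were not called, with log2FC -0.35 ± 0.17 and -0.19 ± 0.08. The 6 called were of 8 tested, 5 lower and 1 higher, beside 60.0% of all 15381 genes tested (30.4% higher and 29.6% lower).

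S100a4 did not fall steadily with serum. It was at 21.5 ± 2.44 CPM at 1%, 24.2 ± 5.57 CPM at 5%, 13.0 ± 6.02 CPM at 10% and 10.4 ± 1.01 CPM at 20%, and the libraries at 1 and 5% overlapped. At 20% serum S100a11 made up 73.0% of the summed FPKM of the members, against 32.3% at 1%, and S100b 0.569% against 10.4%. The sum of 5 fibroblast markers was 22.3 to 123 CPM at 1% serum and 454 to 546 CPM at 20%. The astrocyte sum was 17720.0 to 23480.0 CPM and 3998 to 4626 CPM, and the oligodendrocyte sum 1140.0 to 1518 CPM and 286 to 306 CPM, in the same order. All 5 fibroblast markers were above 3 counts in every library of FBS20, FBS1 and SPONT. The cultured cells all came from the 1 tagged line, and cell type and cell state cannot be told apart in these sums. Their part in the S100 changes was not tested. Among partners, 13 rose and 3 fell of 19 tested, beside 30.4% higher and 29.6% lower of all 15381 genes tested. Those that rose included Anxa1 (1.04 to 65.1 CPM, log2FC 5.98 ± 0.33), Myh9 (133 to 650.4 CPM, log2FC 2.26 ± 0.09) and the receptor Ager (0.336 to 3.63 CPM, log2FC 3.38 ± 0.25).

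CNTF added to 5% serum was compared with 5% serum alone. Here S100a4 fell, from 25.4, 31.2, 22.3 and 18.0 CPM to 12.6, 10.8, 13.4 and 14.4 CPM (log2FC -0.995 ± 0.15, adjusted p = 0.000984). S100a10 fell from 197, 221, 246 and 191 CPM to 152, 145, 159 and 157 CPM (log2FC -0.55 ± 0.07, adjusted p = 0.000274). S100a13 (log2FC -0.81 ± 0.09, adjusted p = 0.000157) and S100a11 (log2FC -0.27 ± 0.06, adjusted p = 0.0063) were lower as well, and of these 4 genes S100a11 alone had overlapping groups. Its call was lost in 6 of the 8 fits that left out a library. S100b held 26.4, 24.0, 26.7 and 26.3 CPM, within the 23.6 to 57.4 CPM of 5% serum (log2FC -0.54 ± 0.24, adjusted p = 0.0944). This made 4 of 8 called beside 23.3% of all 15272 genes tested (11.3% higher and 12.0% lower), all of them lower, but none was called when all 23 groups shared 1 estimate of the spread.

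The effect of CNTF with serum minus that without was tested in 1 fit of the 4 groups. The difference was -4.07 ± 0.35 (adjusted p = 3.2e-07) on the log2 scale for S100a4. It was -1.77 ± 0.14 (adjusted p = 1.01e-07) for S100a11, -1.59 ± 0.15 (adjusted p = 9.15e-07) for S100a10, -1.84 ± 0.38 (adjusted p = 0.0015) for S100a6 and -1.09 ± 0.26 (adjusted p = 0.0037) for S100a13. For these 5 of 8 members the CNTF effect was thus lower in serum by more than the error, while 22.9% of all genes tested passed the same test. S100b showed no call (0.15 ± 0.35, adjusted p = 0.754). Without any 1 library the count ranged from 4 to 7. The sum of fibroblast markers moved with this contrast, being 149.8 to 538 CPM with 5% serum, 20.0 to 26.4 CPM with serum and CNTF and 8.99 to 11.5 CPM with CNTF, and its part in the result was not tested.

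**Figure D2:**
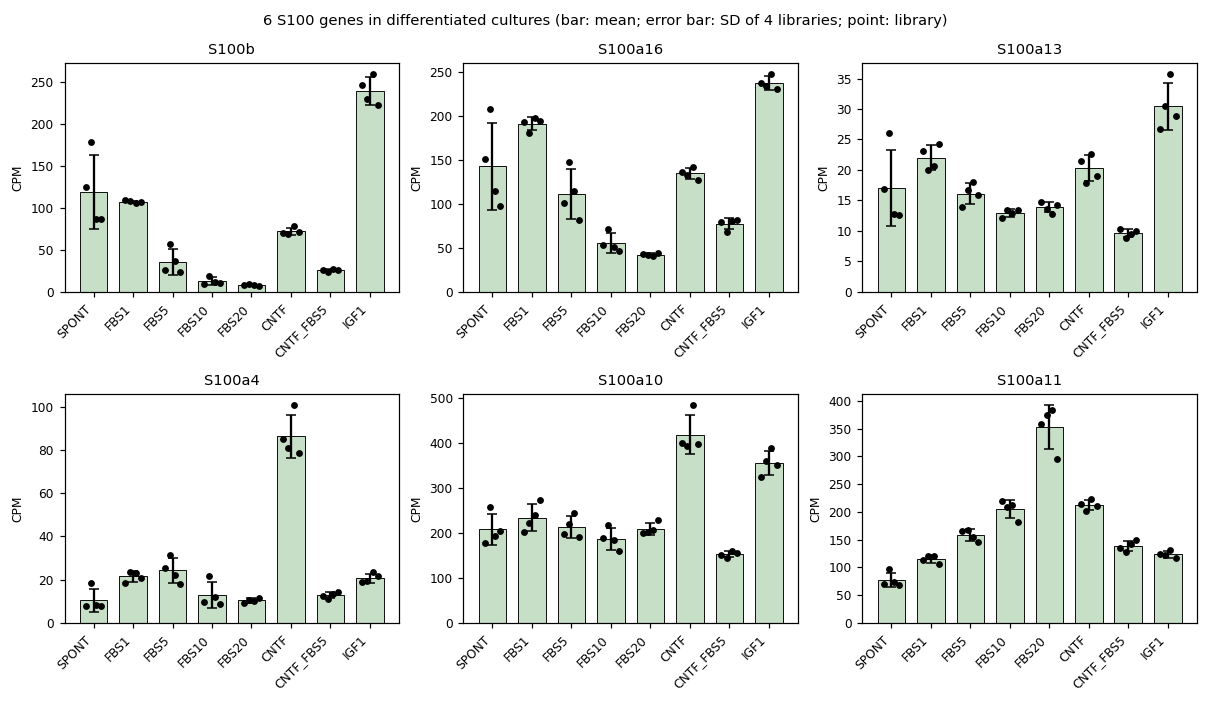
CPM of 6 S100 genes in the 8 differentiated cultures, where a bar is the mean, its error bar the SD and a point 1 of 4 libraries. S100b falls and S100a11 rises from FBS1 to FBS20, and the S100a4 bar of CNTF, at 86.4 CPM, is above those of all other cultures.

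The carrier used for grafting was tested on NPC passed through a pipette. In DCH, S100a10 was at 17.3, 21.7 and 35.3 CPM (lowest, median and highest) against 10.9, 9.01, 9.09, 7.80 and 11.1 CPM in medium (log2FC 1.32 ± 0.18, adjusted p = 4.94e-05). S100a11 was at 39.6, 37.6, 40.3, 48.1 and 38.6 CPM against 20.4, 21.0, 25.0, 22.9 and 25.3 CPM (log2FC 0.84 ± 0.12, adjusted p = 3.73e-05). Both genes were separate between the carriers, and they were the 2 called of 7 tested beside 4.32% of all 13860 genes tested (1.91% higher and 2.41% lower). S100a4 did not pass the filter, though its 5 DCH libraries, 0.695, 0.111, 0.476, 0.970 and 0.925 CPM, all exceeded the highest medium library of 0.0613 CPM. S100a6 was higher in DCH with no overlap but was not called (log2FC 2.73 ± 0.95, adjusted p = 0.0773). After 4 hours in DCH 0 of 8 members tested were called by edgeR against DCH without the wait, 1 had an unadjusted p below 0.05, DESeq2 called 0, beside 0.320% of all 13768 genes tested (0.0436% higher and 0.276% lower).

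SPONT cultures were then set against healthy host astrocytes. The astrocyte marker S100b had a lowest, median and highest value of 2216, 2463 and 3388 CPM in the 9 host libraries and 125, 179, 86.4 and 86.1 CPM in SPONT (log2FC -4.76 ± 0.22, adjusted p = 1.61e-12). S100a1 was at 443, 541 and 701 CPM in host and 3.22, 5.47, 2.85 and 2.63 CPM in culture, a 195-fold difference (log2FC -7.61 ± 0.24, adjusted p = 9.62e-15). Both were far apart with no overlap. S100a6 (log2FC -4.15 ± 0.31, adjusted p = 1.23e-09), S100a13 (log2FC -3.20 ± 0.21, adjusted p = 1.86e-10) and S100a16 (log2FC -1.41 ± 0.19, adjusted p = 2.4e-06) were also lower in culture. S100a11 went the other way, at 70.0, 96.5, 72.8 and 68.5 CPM in SPONT against 11.8, 21.4 and 26.6 CPM in host (log2FC 1.59 ± 0.15, adjusted p = 4.37e-08), and S100a10 was higher in culture by 0.47 ± 0.12 on the log2 scale (adjusted p = 0.00182), though it was not called without SPONT replicate 2 (log2FC 0.34). S100a4 was not called, at 10.5 ± 5.39 and 13.0 ± 3.51 CPM, but it was called lower in culture without SPONT replicate 2 (log2FC -1.10). All 10 members were tested and 9 called, 7 of them lower, beside 67.0% of all 16571 genes tested (32.5% higher and 34.5% lower). S100a8 and S100a9, with 0 counts in every SPONT library, passed the filter only through the host, so no other direction could be called.

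Where cultures had no counts at all, the difference from host is a bound. With a floor of 3 counts per library in SPONT, S100a8 was at least 12.5-fold and S100a9 at least 28.5-fold higher in healthy host. Over the same contrast the oligodendrocyte sum was 1110.0 to 2506 CPM in SPONT and 5901 to 12490.0 CPM in host, and the Schwann cell sum 5.47 to 9.28 and 821 to 1789 CPM, and their part in the differences was not tested. No culture came near the host for S100a1, which reached 1.10% of the healthy host mean in its highest culture, IGF-1. Mean S100a4 in CNTF stood at 665% of the healthy mean.

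Injury changed 6 of the 10 members in host astrocytes 14 days after SCI, all upward, beside 41.1% of all 16886 genes tested (22.2% higher and 18.8% lower). S100a4 was at 7.46, 12.6 and 18.6 CPM (lowest, median and highest) in healthy host and at 206, 281, 149, 123 and 279 CPM after SCI, 14.2-fold higher (log2FC 3.83 ± 0.23, adjusted p = 6.22e-10). S100a11 went from 11.8, 21.4 and 26.6 CPM to 196, 168, 142, 106 and 168 CPM (log2FC 2.77 ± 0.16, adjusted p = 5.94e-10). S100a6 went from 142, 202 and 319 CPM to 1257, 1262, 938, 767 and 2111 CPM (log2FC 2.45 ± 0.23, adjusted p = 1.22e-07). In all 3 genes every injured library was above every healthy one. S100a10 rose from 118 ± 16.1 to 250.2 ± 28.9 CPM (log2FC 0.91 ± 0.11, adjusted p = 3.61e-06) and S100a16 from 301 ± 56.0 to 641 ± 158 CPM (log2FC 0.93 ± 0.15, adjusted p = 6.44e-05). S100a13 was higher by less (log2FC 0.69 ± 0.20, adjusted p = 0.00755), and it was not called without SCI replicate 2 or 5 (log2FC 0.73 and 0.33) or without any of 7 of the healthy libraries. S100b did not move beyond its spread, at 2216, 2463 and 3388 CPM in healthy and 2572, 2566, 2275, 1952 and 3053 CPM in SCI host (log2FC -0.22 ± 0.13, adjusted p = 0.163), and S100a1 was not called (log2FC 0.48 ± 0.17, adjusted p = 0.0255).

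SCI host replicate 5 was the highest of its group for S100b, S100a1, S100a6, S100a8, S100a9, S100a10, S100a13 and S100a16. Markers of other cells moved with injury in the host precipitates. The 10 macrophage and microglia markers summed to 14.3 to 30.7 CPM in healthy and 244 to 1784 CPM in SCI libraries, with all 10 above 3 counts in every SCI library. Fibroblast markers summed to 47.4 to 98.0 CPM in healthy and 454 to 1009 CPM in SCI libraries. Schwann cell markers summed to 821 to 1789 CPM and 2125 to 5022 CPM, and oligodendrocyte markers to 5901 to 12490.0 CPM and 23720.0 to 39650.0 CPM, in the same order. Their part in the S100 changes was not tested. Partner genes showed 9 higher and 4 lower of 20 tested, beside 22.2% higher and 18.8% lower of all 16886 genes tested. Anxa1 rose from 1.11 to 19.8 CPM, log2FC 3.98 ± 0.27, Anxa2 from 72.5 to 383 CPM, log2FC 2.23 ± 0.13 and Ager, the RAGE receptor, from 2.02 to 15.9 CPM, log2FC 2.82 ± 0.21. The receptor Tlr4 rose from 0.851 to 2.69 CPM, log2FC 1.46 ± 0.31, and Fgf1 fell from 508 to 286 CPM, log2FC -1.01 ± 0.09.

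NPC grafted into uninjured cord were compared with NPC pipetted in DCH. All 10 members tested were higher in the grafts, beside 53.7% of all 15045 genes tested (28.4% higher and 25.3% lower). S100a8 had 0 counts and S100a9 at most 2 in a DCH library. These 2 members passed the filter only through the grafts, so no other direction could be called. S100b went from 12.2, 15.3, 15.2, 19.0 and 18.4 CPM to 798, 919.8, 752, 889 and 857 CPM (log2FC 5.75 ± 0.16, adjusted p = 2.78e-10). S100a16 went from 1.95, 1.88, 0.147, 0.309 and 0.797 CPM to 386, 347, 501, 356 and 196 CPM (log2FC 8.48 ± 0.67, adjusted p = 3.86e-07). Neither gene came near an overlap, and S100a1 (log2FC 7.56 ± 0.47, adjusted p = 5.27e-08), S100a6 (log2FC 6.38 ± 0.33, adjusted p = 1.24e-08), S100a4 (log2FC 5.88 ± 0.60, adjusted p = 3.34e-06) and S100a13 (log2FC 4.78 ± 0.38, adjusted p = 4.3e-07) did not overlap either. S100a10 and S100a11 rose least (1.46 ± 0.21 and 0.83 ± 0.16 on the log2 scale). The sources do not name the NPC used as reference for grafts. Against NPC in medium these log2FC were 2.79 and 1.68, against P15 NPC 2.98 and 2.37, and all 10 members were called against either. Both of these NPC groups held S100a4, S100a8 and S100a9 below the filter, so for them no other direction could be called. In SCI grafts 9 were tested, all but S100a8, and all 9 were higher, beside 51.6% of all 15027 genes tested (28.4% higher and 23.3% lower), with S100b at 762, 979, 720.3, 877 and 390.0 CPM (log2FC 5.85 ± 0.22, adjusted p = 5.06e-10) and S100a4 at 184, 179, 206, 358 and 57.1 CPM (log2FC 8.58 ± 0.59, adjusted p = 6.16e-08). The log2FC was 7.72 ± 0.38 for S100a1, 7.38 ± 0.43 for S100a6, 2.75 ± 0.25 for S100a10, 2.15 ± 0.15 for S100a11, 5.52 ± 0.48 for S100a13 and 9.36 ± 0.69 for S100a16, with S100a9 given below. S100a9 again passed the filter only through the grafts. Both comparisons share the DCH libraries. The graft libraries also differed in markers of other cells, with 5 neuron markers at 1466 to 7478 CPM and macrophage and microglia markers at 183 to 1133 CPM in uninjured cord, against 1.55 to 6.13 and 0.545 to 2.44 CPM in DCH, and their part was not tested.

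Grafts in SCI were set against grafts in uninjured cord at 14 days. S100a4 was at 45.1, 42.0, 55.9, 31.9 and 10.9 CPM in uninjured and 184, 179, 206, 358 and 57.1 CPM in injured cord (log2FC 2.68 ± 0.43, adjusted p = 0.00185). S100a11 was at 58.8, 89.4, 64.6, 83.0 and 59.2 CPM and 205, 150.4, 161, 126 and 89.3 CPM (log2FC 1.29 ± 0.19, adjusted p = 0.0012), and S100a10 at 76.1, 65.1, 54.2, 50.3 and 73.7 CPM and 143, 120.0, 147, 173 and 60.3 CPM (log2FC 1.26 ± 0.23, adjusted p = 0.004). S100a4 was separate between the groups by a narrow margin, while for S100a10 and S100a11 SCI replicate 5 lay within the uninjured range. Of 10 members tested 3 were called beside 4.64% of all 15813 genes tested (2.09% higher and 2.55% lower). S100a6 (log2FC 0.97 ± 0.26, adjusted p = 0.0231) and S100a16 (log2FC 0.85 ± 0.26, adjusted p = 0.0434) were not called, and both were when SCI replicate 5 was left out, which made 5. The call of S100a10 was lost in 5 of the 10 fits that left out a library. S100b showed no call (log2FC 0.07 ± 0.20, adjusted p = 0.866). SCI replicate 5 had the lowest S100b, S100a1, S100a4, S100a6, S100a10, S100a11, S100a13 and S100a16 of its group, with the highest macrophage and microglia sum, 1503 CPM against 464 to 734 CPM, and the highest fibroblast sum, 3359 CPM against 944 to 1572 CPM. Neuron markers summed to 1466 to 7478 CPM in uninjured and 237 to 539 CPM in SCI grafts, and oligodendrocyte markers to 12240.0 to 28080.0 and 4523 to 11250.0 CPM. The part of these cells in the S100 differences was not tested. Of the partner list 0 of 19 tested were called by edgeR, with 6 at an unadjusted p below 0.05.

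The injury effect in grafts minus that in host was tested in 1 fit. S100a11 differed by -1.51 ± 0.25 (adjusted p = 5.79e-05) and S100a6 by -1.51 ± 0.37 (adjusted p = 0.00282), so both effects were smaller in grafts, while 16.8% of all genes passed. S100a4 was not called (-1.19 ± 0.47, adjusted p = 0.0601), and S100a10 differed by 0.31 ± 0.25 (adjusted p = 0.387). The count of 2 was the same when any 1 library was left out.

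**Figure D3:**
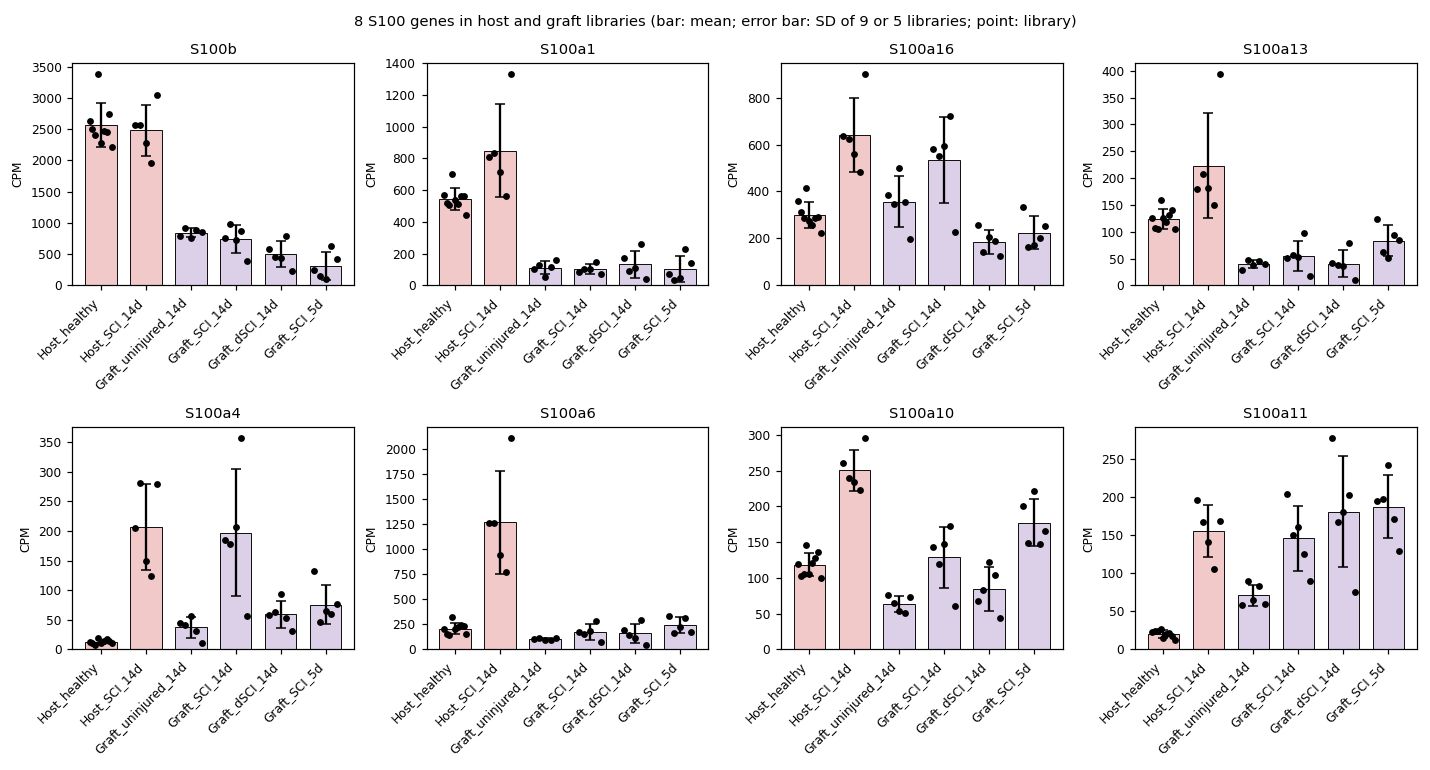
CPM of 8 S100 genes in host and graft libraries, where a bar is the mean, its error bar the SD and a point a library. S100b is highest in both host groups, while S100a4 is near 207 CPM in SCI host and 197 CPM in SCI grafts and lower in the other 4 groups.

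Double crush and time in the lesion were compared among grafts. In dSCI grafts S100a4 was at 57.6, 62.8, 94.3, 52.6 and 30.3 CPM and S100a16 at 256, 142, 208, 189 and 127 CPM, against 579.8, 551, 594, 719.8 and 228 CPM for S100a16 in SCI. Both were lower (log2FC -1.80 ± 0.34, adjusted p = 0.00881 for S100a4 and log2FC -1.57 ± 0.26, adjusted p = 0.00551 for S100a16). They were the 2 called of 10 tested, beside 1.83% of all 15790 genes tested (1.29% higher and 0.538% lower), and 0 or 1 was called by edgeR in 9 of 10 fits that left out a library. Between SCI grafts at 5 and 14 days S100a16 alone was called higher at 14 days (log2FC 1.40 ± 0.28, adjusted p = 0.00726), from 332, 162, 171, 202 and 254 CPM at 5 days, beside 5.30% of all 15314 genes tested (2.72% higher and 2.58% lower). That count fell to 0 without any of 7 libraries and rose to 2 without SCI 14-day replicate 5 or 5-day replicate 4. S100b was at 238, 146, 104, 631 and 428 CPM at 5 days and did not pass (log2FC 1.39 ± 0.44, adjusted p = 0.0576). Fibroblast markers summed to 6545 to 21870.0 CPM in dSCI, 5319 to 17260.0 CPM at 5 days and 944 to 3359 CPM in SCI at 14 days, and macrophage and microglia markers to 896 to 9226, 554 to 12780.0 and 464 to 1503 CPM. Their part in the differences was not tested. The 5-day libraries were single reads, so read type and time cannot be told apart.

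Grafted cells were last compared with host astrocytes of the same cord state, using the graft and host libraries of the comparisons above. In uninjured cord S100b was at 798, 919.8, 752, 889 and 857 CPM in grafts and 2216, 2463 and 3388 CPM (lowest, median and highest) in host (log2FC -2.15 ± 0.12, adjusted p = 2.29e-10). S100a1 was lower by 2.82 ± 0.23 and S100a13 by 2.19 ± 0.14 on the log2 scale (adjusted p = 1.24e-08 and 1.04e-09). S100a6 (log2FC -1.52 ± 0.18, adjusted p = 1.34e-06) and S100a10 (log2FC -1.43 ± 0.15, adjusted p = 1.68e-07) were lower too. S100a11 was higher in grafts, at 58.8, 89.4, 64.6, 83.0 and 59.2 CPM (log2FC 1.25 ± 0.16, adjusted p = 2.14e-06), and so was S100a4 (log2FC 0.94 ± 0.27, adjusted p = 0.0056), a call lost when any of 6 single libraries was left out. This made 7 of 10 called beside 49.7% of all 16506 genes tested (26.5% higher and 23.3% lower). After SCI, S100b (log2FC -1.82 ± 0.22, adjusted p = 0.000103), S100a1 (log2FC -3.13 ± 0.29, adjusted p = 1.55e-05), S100a6 (log2FC -2.95 ± 0.37, adjusted p = 0.000119), S100a13 (log2FC -2.12 ± 0.40, adjusted p = 0.00179) and S100a10 (log2FC -1.04 ± 0.22, adjusted p = 0.00394) were lower in grafts, 5 of 10 beside 14.6% of all 16575 genes tested (6.79% higher and 7.84% lower). The S100a10 call was lost in 3 of the 10 fits that left out a library. S100a4, S100a11 and S100a16 differed by less than their error allowed to call, with log2FC -0.16 ± 0.38, -0.17 ± 0.20 and -0.35 ± 0.26. The Schwann cell sum was 2125 to 5022 CPM in SCI host and 40.7 to 160.0 CPM in SCI grafts, and the oligodendrocyte sum 23720.0 to 39650.0 and 4523 to 11250.0 CPM. In uninjured cord the Schwann cell sum was 821 to 1789 CPM in host and 67.7 to 211 CPM in grafts. There the oligodendrocyte sum was 5901 to 12490.0 and 12240.0 to 28080.0 CPM, and the neuron sum 277 to 399 and 1466 to 7478 CPM, in the same order. The part of these cells in the differences was not tested.

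**Figure D4:**
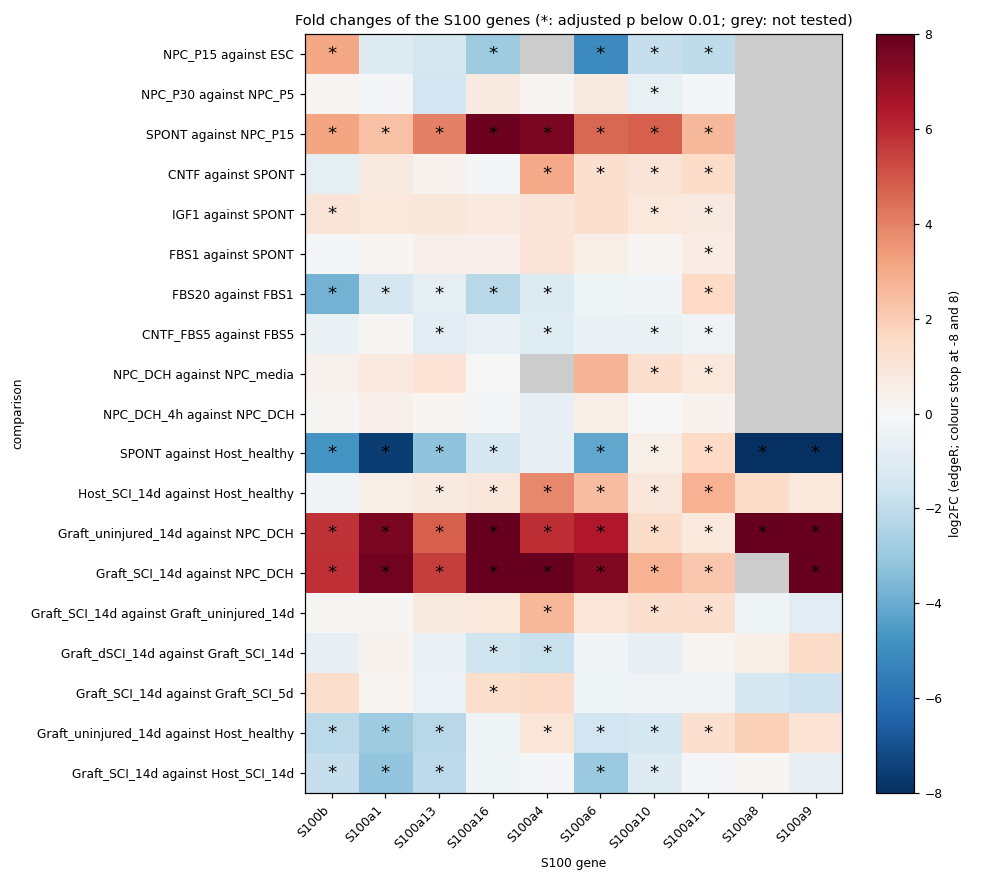
The log2FC of each S100 gene (columns) in each of the 19 comparisons (rows), with red for higher and blue for lower in the group named first, a star at an adjusted p below 0.01 and grey where a gene was not tested. All 8 tested members are red in SPONT against NPC_P15, and S100b is blue in FBS20 against FBS1 where S100a11 is red.

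S100a8 and S100a9 form calprotectin, a complex abundant in neutrophils and a ligand of Tlr4. In the 34 host and graft libraries S100a8 ranged from 0 to 14.3 CPM and S100a9 from 0 to 18.1 CPM, while in the other 73 libraries neither passed 0.0742 CPM. Both were too low to be tested in any comparison between cultures. S100a8 was at 0.130, 0.360 and 1.49 CPM (lowest, median and highest) in healthy host and 0.340, 1.30, 0.350, 0.585 and 6.41 CPM in SCI host. S100a9 was at 0.602, 1.06 and 3.16 CPM and 0.501, 1.74, 0.171, 0.603 and 10.7 CPM. Except for SCI replicate 5, with 6.41 and 10.7 CPM, the injured libraries lay inside or below the healthy range, and neither gene was called (log2FC 1.44 ± 0.72, adjusted p = 0.105, and log2FC 0.87 ± 0.74, adjusted p = 0.337). Without that library the log2FC of S100a8 was -0.15 and that of S100a9 -1.11.

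Grafts held S100a8 at 5.47, 5.20, 0.663, 0.581 and 4.39 CPM in uninjured cord, 1.64, 1.25, 0.0330, 2.16 and 4.94 CPM in SCI, 4.29, 2.77, 0, 8.09 and 0.834 CPM in dSCI and 14.3, 2.41, 0.450, 12.2 and 0.991 CPM at 5 days. S100a9 held 2.76, 10.1, 2.20, 1.83 and 4.82 CPM, 0.414, 2.38, 2.85, 1.04 and 2.62 CPM, 5.82, 0, 7.33, 13.5 and 1.37 CPM and 18.1, 4.28, 0.450, 9.44 and 0.991 CPM in the same groups. The libraries of all 4 groups overlapped for both genes, and no comparison among grafts called either gene. Against NPC in DCH, with a floor of 3 counts per library, S100a8 was at least 68.2-fold higher in uninjured grafts and at least 41.9-fold higher on the mean in SCI grafts, where 4 of 5 libraries were above the floor. S100a9 had at most 2 counts in a DCH library and at least 32 in each of these graft libraries. The 2 genes did not always go together by library. In dSCI replicate 2 S100a8 had 252 counts and S100a9 0, in dSCI replicate 3 S100a8 had 0 and S100a9 486, and in SCI graft replicate 3 they had 2 and 173.

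A list of 11 neutrophil markers summed to 1.72 to 3.92 CPM in healthy host, 5.34 to 27.2 CPM in SCI host, 14.3 to 51.5 CPM in uninjured grafts, 23.7 to 76.8 CPM in SCI grafts, 58.3 to 142 CPM in dSCI grafts and 84.7 to 184 CPM at 5 days. Of the 11, 7 had over 3 counts in every SCI host library and 1 to 5 did in every library of a graft group. Csf3r was the most abundant in the 14-day grafts, at 20.1, 27.9 and 68.7 CPM in uninjured, SCI and dSCI cord, and Mmp9 at 5 days, at 95.3 CPM. No other marker of the list had a mean above 9.37 CPM in a group of 14-day grafts. The defining marker Ly6g had 0 counts in 32 of the 34 libraries, 3 in SCI host replicate 4 and 24 in uninjured graft replicate 5. The part of neutrophils in the levels of S100a8 and S100a9 was not tested.

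**Figure D5:**
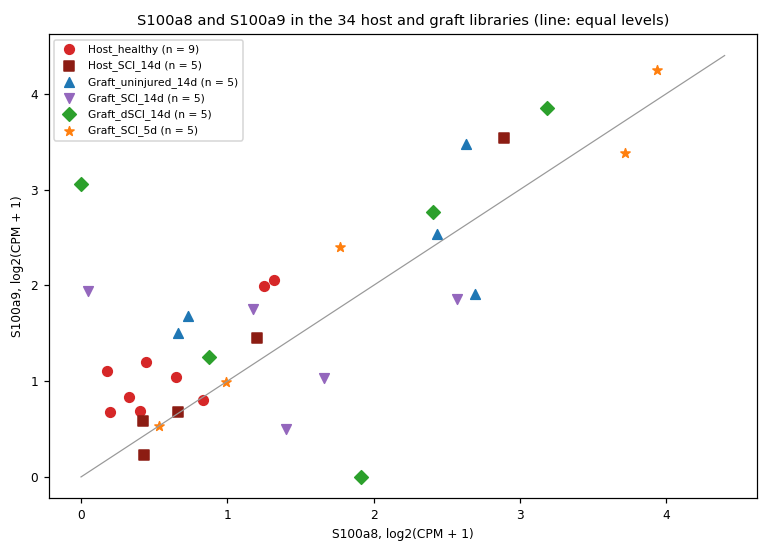
S100a9 against S100a8 in the 34 host and graft libraries, both as log2(CPM + 1), with 1 symbol per group and a line of equal levels. Most libraries lie along the line, while dSCI replicates 2 and 3 and SCI graft replicate 3 lie on or near an axis, with 1 of the genes at or near 0.

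Other S100 genes were scarce. Of 7 listed, S100a3 and S100a14 were the ones tested in SPONT against NPC, where 29.8% of all 14852 genes tested were called higher. Both were called higher, from 0 counts in all P15 NPC libraries to 1.13 ± 0.469 and 1.64 ± 0.897 CPM. They passed the filter only through SPONT, so no other direction could be called. S100a3, a neighbour of S100a4 on chromosome 3, was at 0.370 ± 0.147 CPM in healthy host, 5.44 ± 2.32 CPM in SCI host and 6.42 ± 2.92 CPM in SCI grafts, and was called higher in SCI host (log2FC 3.72 ± 0.30, adjusted p = 2.11e-08). S100g was at 4.27 ± 0.909 CPM in FBS20 and 0.00647 ± 0.0129 CPM in FBS1, and S100a14 fell over the same contrast (log2FC -4.81 ± 0.49, adjusted p = 2.38e-06). S100a14 had at most 6 counts in an FBS20 library and passed the filter only through FBS1.

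Similar profiles were sought over the 23 group means on the log2(CPM + 1) scale among 13041 genes, as a description only, since the groups share the step from culture to tissue. Cldn11, a tight junction gene of myelin (Pearson r = 0.97), Nkain2 (0.97) and Lgi4 (0.96) were most like S100b. For S100a1 they were Tagln3, Paqr6 and Mal (each 0.98), for S100a4 Serpina3n (0.98), Ctsb (0.97) and Micall2 (0.96), and for S100a6 Rab4b, Lgals3 and Pth1r (each 0.95). S100a13 was most like Paqr7 (0.97), Slc48a1 (0.96) and Aqp4 (0.96), and S100a16 like Phyhd1 and Ccdc190 (both 0.98). S100a8 and S100a9 were closest to C1qa and Ctss, genes of microglia and macrophages, S100a8 also to C1qb and S100a9 to Ctsk (each 0.98, with Spearman's rho from 0.62 to 0.71), S100a10 to Tmem205 (0.97), Vps28 (0.96) and Bloc1s1 (0.95), and S100a11 to Cyb5r3 (0.94), Tspan17 (0.93) and Rab3d (0.91). The choice of measure mattered, since by Spearman's rho 7 of the 30 genes were still among the 3 nearest to their member, none of them for S100b, S100a1, S100a8, S100a9 or S100a16. Among the members themselves r was 0.99 for S100a8 with S100a9, 0.95 for S100a6 with S100a13 and 0.93 for S100b with S100a1, and lowest, 0.20, for S100a10 with S100a8.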

How the data were processed

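RiboTag RNA was read in 107 libraries. The authors deposited 1 table of raw counts per library, whole numbers per Entrez gene, with no normalization. The submitters' processing notes name Trimmomatic, HISAT2, featureCounts and mm10, with versions and strand setting not given in the sources used here. Both mates of a pair appear to have been counted, so counts are not independent molecules. Among values from 1 to 20, 53.1 to 73.8% were even in the 96 paired libraries and 43.1 to 48.5% in the 11 single-read ones. No 2 libraries held identical values.

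Groups followed the sample titles. Each of 19 comparisons was fitted on its own groups with edgeR 4.0.16 in R 4.3.3 (TMM, filterByExpr with a minimum count of 10, quasi-likelihood F test, two-sided, Benjamini-Hochberg over all genes tested), and a gene was called at an adjusted p below 0.01. The error of a log2 fold change (log2FC) is its SE, and folds are those of the fit. The difference of effects was tested as an interaction for CNTF in serum and for injury in grafts and host, both added after the data were seen. P-values measure the spread between libraries, which for cultures may be technical. CPM used the sum of all 27179 genes, with a pseudocount of 1 on the log2 scale and a floor of 3 counts, which covers counting error only. FPKM divided CPM by union exon length. Figures and summaries used Python 3.11.15, pandas 2.3.3, numpy 2.4.6 and matplotlib 3.10.9. The fits were tested on simulated data.

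The members and the lists of partners, other S100 genes and cell markers were chosen with earlier results of these data known. Members are named in every comparison that called or filtered them, list genes beside their list's count, and the 3 genes with the highest Pearson r to each member (highest group mean of at least 10 CPM, Y-linked genes and Xist left out) as similar genes. For S100a16, 1 of these is not reported here. Alternatives were DESeq2 1.42.0, its size factors, no filter or a stricter one (1 CPM), all 23 groups in 1 fit, other reference groups, a replicate block and leaving out each library. Pairing by number was not shown, since in no comparison did same-numbered libraries all correlate above 0.1. Single pairs reached 0.364 (FBS1 against SPONT), so this check could not exclude a partial pairing. Promoters came from RefSeq (GRCm38.p6).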

Additional observations from a re-analysis of the deposited data

Results flagged for a closer look

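In groups of 4 to 10 libraries, 13 of 168 gene and group combinations had a library far from the others by Dixon's test, where chance gives about 1 in 20. SPONT replicate 2 stood high for S100a4, at 18.5 CPM with the next at 8.09 CPM, and for S100a11, at 96.5 CPM with the next at 72.8 CPM. SCI host replicate 5 stood high for S100a8, at 6.41 CPM against 1.30 CPM, for S100a9, at 10.7 CPM against 1.74 CPM, and for S100a13, at 395 CPM against 208 CPM. Healthy host replicate 4 had the highest S100b, 3388 CPM with the next at 2747 CPM, and the highest S100a1, 701 CPM with the next at 572 CPM. S100a10 stood at 485 CPM in CNTF replicate 3, against 400.4 CPM in the next. S100a11 stood at 48.1 CPM in NPC in DCH replicate 4, and S100a16 at 4.17 CPM in NPC in medium replicate 1, where the next held 0.414 CPM. Low values were S100b in P5 NPC replicate 2, at 12.4 CPM, S100b in CNTF with 5% serum replicate 2, at 24.0 CPM, and S100a10 in NPC after 4 hours in DCH replicate 1, at 15.8 CPM.

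Effects that differed by an interaction test in edgeR were those of CNTF with and without 5% serum, by -4.07 on the log2 scale for S100a4, -1.84 for S100a6, -1.77 for S100a11, -1.59 for S100a10 and -1.09 for S100a13. The effect of SCI differed between grafts and host by -1.51 for S100a11 (adjusted p = 5.79e-05) and by -1.51 for S100a6 (adjusted p = 0.00282).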

How the results depend on the processing

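Of 190 member and comparison combinations 167 were tested and 86 called, and no called log2FC changed sign under any alternative run. These runs set no other NPC derivation against ESC, where mean S100a10 was above ESC in D2 and D3. Counts of members called changed by over 1.5 times as follows. DESeq2 called 2 in P30 against P5 NPC (1 by edgeR), 7 with IGF-1 (3), 2 with 1% serum (1), 5 in SCI against uninjured grafts (3) and 3 in SCI grafts at 14 against 5 days (1). With all 23 groups in 1 fit the counts were 2 in P30 against P5, 0 with 1% serum, 0 for CNTF in 5% serum (4), 4 in DCH against medium (2) and 3 at 14 against 5 days. The stricter filter gave 2 in P30 against P5.

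With a replicate block, although pairing by number was not shown, the counts were 0 with IGF-1, 2 with 1% serum, 0 in dSCI against SCI grafts (2), 0 at 14 against 5 days and 3 in SCI grafts against SCI host (5), and of 167 values 15 lost and 2 gained a call. Values that changed sign under the block, none called, were S100a4 in P30 against P5 (-0.44), S100a16 in DCH against medium (0.75), and S100a9 in SCI against healthy host (-0.36) and in SCI grafts against SCI host (0.41).

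When each library was left out in turn, the counts ran from 3 to 7 with CNTF, 0 to 8 with IGF-1, 0 to 4 with 1% serum, 2 to 5 in SCI against uninjured grafts, 0 to 2 in dSCI against SCI grafts and 0 to 2 at 14 against 5 days. Values near 0 that crossed it, none of them called, had these log2FC ranges. In P30 against P5 NPC it was S100a1 -0.35 to 0.31 and S100a4 -1.11 to 0.57. With CNTF it was S100a16 -0.22 to 0.20. With 1% serum it was S100b -0.27 to 0.13. For CNTF in 5% serum it was S100a1 -0.084 to 0.18. In DCH against medium it was S100a16 -0.39 to 2.08. After 4 hours in DCH it was S100b -0.12 to 0.21, S100a10 -0.051 to 0.24, S100a13 -0.088 to 0.32 and S100a16 -0.60 to 0.20. In SCI against healthy host it was S100a8 -0.15 to 1.74 and S100a9 -1.11 to 1.17. In SCI against uninjured grafts it was S100b -0.016 to 0.20 and S100a1 -0.075 to 0.32. In dSCI against SCI grafts it was S100a1 -0.12 to 0.49, S100a6 -0.59 to 0.052 and S100a8 -0.20 to 1.31. At 14 against 5 days it was S100a1 -0.10 to 0.70. In SCI grafts against SCI host it was S100a4 -0.52 to 0.023, S100a8 -0.73 to 1.70 and S100a9 -0.99 to 1.31. In the serum interaction it was S100b -0.13 to 0.49. In the injury interaction it was S100a9 -2.13 to 0.14, S100a13 -0.35 to 0.35 and S100a16 -0.27 to 0.084. The cause of these changes was not tested.

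TMM scaling of the levels kept 209 of 230 group means within 1 SD. Healthy host means rose by more, S100b from 2566 ± 348 to 3305 CPM and S100a1 from 546 ± 70.3 to 704 CPM. In P15 NPC S100b fell from 14.9 ± 4.45 to 13.4 CPM. The size of gaps in CPM between host and cultures thus depends on the scaling, while the fits used TMM. Depth limited S100a8, S100a9 and, in NPC, S100a4.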
